A study of Homo sapiens with 7 samples.

Results

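The core circadian clock genes are CLOCK, BMAL1, PER1, PER2, PER3, CRY1, CRY2, NR1D1, NR1D2 and DBP. These 10 genes, of 19062 named genes on the array, were chosen by name and not by a rule on measured values. Earlier results of these data were known when they were chosen. They were represented by 14 probes, with 1 probe each for BMAL1, PER1, CRY1, CRY2, NR1D1 and DBP and 2 probes each for CLOCK, PER2, PER3 and NR1D2. All 14 probes were above background on every array, so no member was lost to a filter on dim signal. Where a gene had 2 probes, the brighter one over all arrays was taken as its main probe and the other is described beside it.

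Expression was measured in NCI-H520, an established cell line from a squamous cell carcinoma of the human lung, on 7 single-colour Agilent arrays with 1 array per group. The control groups were cells given the pLKO.1 empty vector and cells given a non-target shRNA. The silenced groups received an shRNA plasmid against PARN, CNOT6, CNOT6L, CNOT7 or NOC (nocturnin, gene NOCT). The study classes all of them as deadenylases, the enzymes that shorten the poly(A) tails of mRNA. For NOC it states that no mRNA is yet known to be its direct target in vivo. It also cites a proposal that NOC can act without deadenylase activity. All 7 groups shared transfection with 6 µg of plasmid DNA by cationic liposomes, puromycin at 6 µg/mL from 12 h and harvest at 72 h. The labels give the CNOT6L and NOC plasmids the same target accession, that of NOC. They mention no step that would bring the cells' clocks into phase, and each group was harvested at a single time, so rhythms cannot be read from these arrays.

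The circadian clock is a feedback loop of transcription that runs in most cells, lung epithelium included. The activators CLOCK and BMAL1 bind E-box DNA together and drive the PER and CRY genes, whose proteins return to the nucleus and repress CLOCK and BMAL1. The same pair drives NR1D1 and NR1D2 (REV-ERB alpha and beta), nuclear receptors that repress BMAL1 through RRE sites, and DBP, a PAR bZIP factor that acts through D-box sites. Several clock messages are short-lived, and nocturnin is known as a deadenylase-family protein whose own mRNA cycles in many tissues. Whether silencing of any of the targeted genes is accompanied by changes in clock mRNAs is the question these arrays can be put to.

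The promoters of NR1D1, PER2 and CLOCK, whose main probes passed the comparison of slide rows, are shown with that of PER1, which carries the canonical E-box. Sequences are from RefSeq (GRCh38.p14) and run 5′ to 3′ on the gene's own strand, from 250 bases before the annotated transcription start to 10 after it. NR1D1 is at chr17:40100580-40100839 (minus strand), PER2 at chr2:238288601-238288860 (minus strand), the second annotated start of CLOCK at chr4:55545923-55546182 (minus strand) and PER1 at chr17:8152395-8152654 (minus strand). Capitals mark matches to the clock motifs named in the next paragraph.
NR1D1: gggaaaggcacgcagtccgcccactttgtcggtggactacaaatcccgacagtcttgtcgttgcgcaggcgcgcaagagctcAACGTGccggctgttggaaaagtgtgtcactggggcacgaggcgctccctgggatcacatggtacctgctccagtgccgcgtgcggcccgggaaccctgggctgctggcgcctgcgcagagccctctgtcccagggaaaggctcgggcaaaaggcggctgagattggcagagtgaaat
PER2: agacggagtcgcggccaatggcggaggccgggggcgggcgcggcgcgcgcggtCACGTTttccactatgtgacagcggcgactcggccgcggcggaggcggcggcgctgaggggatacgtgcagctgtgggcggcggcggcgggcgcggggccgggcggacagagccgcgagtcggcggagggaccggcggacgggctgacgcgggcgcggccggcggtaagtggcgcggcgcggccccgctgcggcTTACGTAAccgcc
CLOCK: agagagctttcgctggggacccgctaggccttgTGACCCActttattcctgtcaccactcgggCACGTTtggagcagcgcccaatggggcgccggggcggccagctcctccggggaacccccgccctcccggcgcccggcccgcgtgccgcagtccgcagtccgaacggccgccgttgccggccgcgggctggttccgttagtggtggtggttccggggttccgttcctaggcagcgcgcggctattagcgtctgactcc
PER1: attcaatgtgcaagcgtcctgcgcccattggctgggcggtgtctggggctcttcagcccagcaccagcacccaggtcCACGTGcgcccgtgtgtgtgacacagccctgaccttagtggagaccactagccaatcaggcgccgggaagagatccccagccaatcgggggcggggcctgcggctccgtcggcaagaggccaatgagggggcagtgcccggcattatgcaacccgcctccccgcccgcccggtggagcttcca

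The motifs searched on both strands, over 300 bases ending 50 after each start, were the E-box CACGTG, the E′-box CACGTT, the D-box TTATGTAA or TTACGTAA, the RRE core TAGGTCA or TGGGTCA and the CRE TGACGTCA. The E-box and E′-box share their first letters, but a site matches only one of them, and no matches overlapped in the members. RefSeq gave windows for all 10 members, 15 in all, since 5 members have 2 annotated starts. CACGTG was found in PER1 at position -173 and in NR1D2 at -155 and -105. These were 2 of the 15 member windows, beside 7.26% of all 35116 windows of this length. CACGTT was found in CLOCK, PER2, CRY1, CRY2 and NR1D1, 5 of the 10 members, for CLOCK and CRY2 at the second start only. By window, it stood in 5 of the 15 member windows and in 5.34% of all windows.

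The D-box words stood in PER2, PER3 and NR1D2, in 3 of the 15 member windows and 1.01% of all windows. The PER2 match spanned the start itself. An RRE core stood in CLOCK, BMAL1, CRY2 and NR1D2, in 4 of the 15 member windows and 5.69% of all windows. In BMAL1 it was at position 31 after the first annotated start. The CRE was found in no member window and in 1.85% of all windows. None of these words was in the DBP window. The windows of the first start of CLOCK, CRY2 and NR1D2 and of the second start of BMAL1 and PER3 held none either. These are matches of letters and do not show binding.

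**Figure D1:**
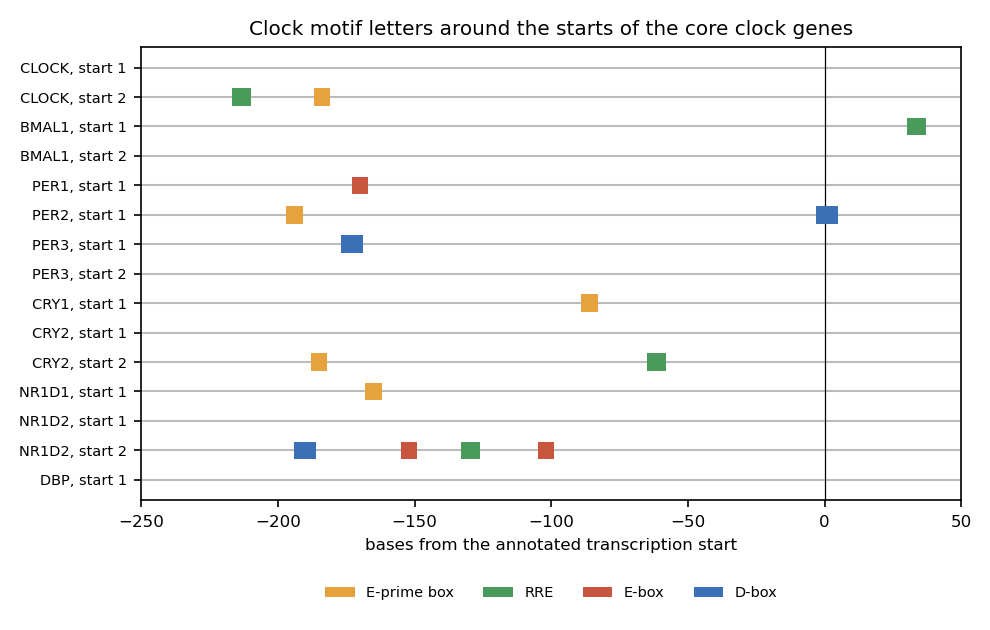
Positions of clock motif letters around the annotated starts of the 10 core clock genes, in bases from the start (0), with 1 line per start and coloured blocks for motif matches. The E′-box (drawn as E-prime box) is the most widespread, in 5 members, and the NR1D2 second start holds the most matches.

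Values below are log2 signals relative to the 75th percentile of signal on the same array, and a difference of 1 is 2-fold. Of the 42405 gene probes, 82.0% to 91.5% were above background per array. The arrays lay on 1 slide. Both controls, PARN shRNA and CNOT6 shRNA were in slide row 1, while CNOT6L, CNOT7 and NOC shRNA were in row 2, and the NOC image was extracted on another day. The 75th percentile was 1362 to 3241 intensity units in row 1 and 3158 to 3940 in row 2. Of 6 squamous markers, KRT6A and SOX2 were above background on all arrays, DSG3 on none, and TP63, KRT5 and KRT14 on 1 to 4 of them. Markers of other cell types were also above background on all arrays, namely CHGA, SYP and INSM1 (neuroendocrine), 3 of 3 leukocyte genes, 3 of 4 fibroblast genes and 2 of 3 alveolar or adenocarcinoma genes. Each targeted mRNA was lower on its own array than on both controls, at 45.7% of the control mean for PARN, 54.6% for CNOT7, 62.9% for CNOT6L, 74.9% for NOCT and 89.5% for CNOT6. PARN was the only one past 2-fold against both controls on its main probe.

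The question for each shRNA was whether any clock mRNA moved 2-fold or more, in the same direction, away from both the empty-vector and the non-target array. None of the 10 members did on their main probe, with any of the 5 shRNAs. Over all gene probes, 0.809% passed this rule with PARN shRNA and 0.677% with CNOT6 shRNA. The share was 1.04% with CNOT6L shRNA, 1.36% with CNOT7 shRNA and 1.78% with NOC shRNA. At these shares a list of 10 genes with none called is near the background. The largest difference of a main probe from the control mean was NR1D1 on the NOC shRNA array, at -0.86, or 55.1% of the control mean. Of the 14 probes, the second PER2 probe alone passed 2-fold against both controls for any shRNA. There is 1 array per group, so none of these differences has a replicate check.

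Set against each other, the control arrays differed less than 2-fold for all 10 members, with 16.5% of all gene probes past 2-fold in that comparison. Most of those probes, 6727, were higher with empty vector and 287 were lower, but the numbers were 2216 and 1116 with quantile normalization and 963 and 165 with normexp. The largest control difference of a member was that of DBP, which was lower with empty vector (-2.35) than with non-target shRNA (-1.62), 0.73 apart. For the other members the controls were 0.09 to 0.36 apart.

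**Figure D2:**
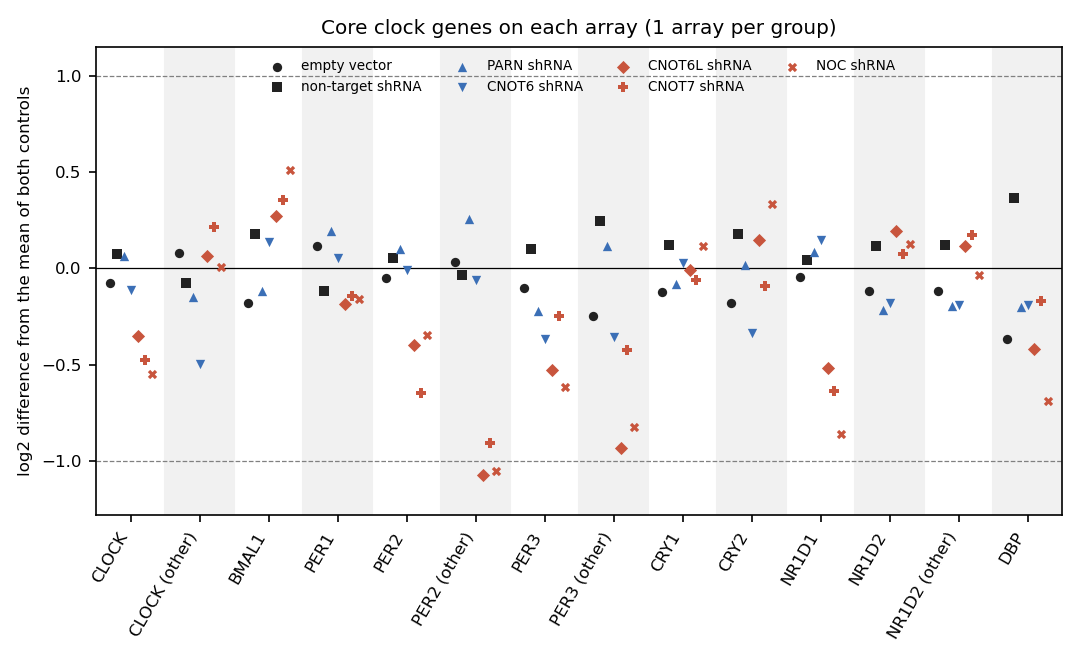
Log2 difference of each array from the mean of both controls for the 14 probes of the core clock genes, with 1 point per array, black for controls, blue for the other arrays of slide row 1 and red for slide row 2; dashed lines mark 2-fold. The red points of NR1D1 (-0.51 to -0.86) and of the second PER2 probe (-0.91 to -1.07) lie below all others of the same probe. So do those of the main probes of CLOCK, PER1 and PER2 and of the second PER3 probe, while those of BMAL1 lie above.

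NR1D1, a repressor driven by CLOCK and BMAL1, had the largest difference between slide rows of the 10 main probes, while the second PER2 probe differed more. The NR1D1 level was -0.55 with empty vector, -0.47 with non-target shRNA, -0.42 with PARN shRNA and -0.36 with CNOT6 shRNA. It was -1.02 with CNOT6L shRNA, -1.14 with CNOT7 shRNA and -1.37 with NOC shRNA. The last 3 arrays, all of slide row 2, were lower than each of the row 1 arrays, and the rows did not overlap. Each value is an average over a culture, in which fewer expressing cells and less RNA per cell cannot be told apart. In the order of levels, the step between the rows and both steps within row 2 were larger than the 0.09 between the controls, whereas no step within row 1 was. Relative to the control mean, NR1D1 stood at 70.0% with CNOT6L shRNA, 64.4% with CNOT7 shRNA and 55.1% with NOC shRNA, and at 106% and 111% with PARN and CNOT6 shRNA.

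NR1D2, its paralog, did not follow. Its level was 0.30 with empty vector, 0.53 with non-target shRNA, 0.19 with PARN shRNA and 0.23 with CNOT6 shRNA. In row 2 it was 0.60 with CNOT6L shRNA, 0.49 with CNOT7 shRNA and 0.54 with NOC shRNA, overlapping the controls. Its second probe gave the same picture, at -1.30 to -0.99 in row 1 and -1.14 to -0.93 in row 2.

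PER2, a repressor of CLOCK and BMAL1, was low on the same 3 arrays. The main probe read 0.51, 0.62, 0.67 and 0.56 with empty vector, non-target, PARN and CNOT6 shRNA, and 0.17, -0.08 and 0.22 with CNOT6L, CNOT7 and NOC shRNA. The second probe read -0.96, -1.02, -0.73 and -1.05 on the row 1 arrays in the same order, and -2.06, -1.90 and -2.04 on the row 2 arrays. On both probes every row 2 array lay below every row 1 array.

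The size differed between the PER2 probes, which carry the same transcript accession. The main probe had 2 spots per array and the second only 1, so the second has no check between spots. Against the control mean the second probe stood at 47.5% with CNOT6L shRNA, 53.3% with CNOT7 shRNA and 48.2% with NOC shRNA, past 2-fold against both controls for CNOT6L and NOC shRNA. The main probe stood at 75.8%, 63.8% and 78.6% on those arrays. The lowest of the 3 arrays was CNOT7 shRNA on the main probe and CNOT6L shRNA on the second, so the order within row 2 depended on the probe.

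PER1, of the same family as PER2, spanned a narrow range. It was 1.01 with empty vector, 0.78 with non-target shRNA, 1.09 with PARN shRNA and 0.95 with CNOT6 shRNA, and 0.71 to 0.75 on the row 2 arrays. The row 2 values lay under all row 1 values, but the gap to the non-target array was smaller than the 0.24 between the controls.

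PER3, the third family member, was -2.91 with empty vector, -2.71 with non-target shRNA, -3.03 with PARN shRNA and -3.18 with CNOT6 shRNA. It was -3.34, -3.06 and -3.42 with CNOT6L, CNOT7 and NOC shRNA, and the rows overlapped. On its second probe, which had 1 spot per array, the rows separated, with -3.85 to -3.24 in row 1 and -4.42 to -3.91 in row 2. That probe had the widest difference of a member's controls after DBP, at 0.50.

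The cryptochromes partner the PER proteins in repression. CRY1 lay between -0.05 with empty vector and 0.19 with non-target shRNA in row 1, and between 0.01 and 0.19 in row 2, the narrowest range of the 10 members at 0.24. CRY2 had a wider range, 0.67, from 0.88 with CNOT6 shRNA to 1.54 with NOC shRNA, and its controls stood at 1.03 and 1.39. The rows overlapped for both genes, and no step between neighbouring arrays exceeded the difference of the controls.

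Of the activators, BMAL1 was the only member whose row 2 values all lay above those of row 1. It was -0.37 with empty vector, -0.01 with non-target shRNA, -0.31 with PARN shRNA and -0.06 with CNOT6 shRNA, then 0.08 with CNOT6L shRNA, 0.16 with CNOT7 shRNA and 0.32 with NOC shRNA. The gap between the rows was small beside the 0.36 between the controls.

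CLOCK was -1.54, -1.39, -1.40 and -1.57 with empty vector, non-target, PARN and CNOT6 shRNA on its main probe, and -1.82, -1.94 and -2.01 with CNOT6L, CNOT7 and NOC shRNA. Its second probe read -2.51, -2.66, -2.73 and -3.08 in row 1 and -2.52, -2.37 and -2.57 in row 2. The main probe was lower throughout row 2, whereas the second was not and had its lowest value with CNOT6 shRNA. With probes that point opposite ways, the direction for CLOCK mRNA is uncertain.

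DBP, the output factor, had the widest range of a main probe, 1.06, and it came mainly from the controls and NOC shRNA. It was -2.35 with empty vector, -1.62 with non-target shRNA, -2.18 with PARN shRNA and -2.17 with CNOT6 shRNA. In row 2 it was -2.40, -2.15 and -2.67 with CNOT6L, CNOT7 and NOC shRNA. The non-target array was the highest of all 7 and the NOC shRNA array the lowest, and the latter was 1.06 below the non-target array but 0.32 below the empty vector.

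The separation by slide row was compared with limma over all probes above background on at least 2 arrays, setting the 3 arrays of row 2 against the 4 of row 1. Row 2 holds different shRNAs from row 1, so slide row and shRNA cannot be told apart, and the spread used is that between different plasmids. At a Benjamini-Hochberg adjusted p of 0.05, 3 of the 10 members were lower in row 2 on their main probe, and none was higher. Over all 38090 probes tested, 4.12% were lower and 2.47% higher. The other 7 members, 3 with a negative and 4 with a positive difference, did not pass.

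NR1D1 was lower by a log2 difference of -0.73 (SE 0.11, limma adjusted p = 0.011, lower on 3 of 3 arrays). PER2 was lower by -0.49 (SE 0.10, limma adjusted p = 0.027) on its main probe and -1.06 (SE 0.11, limma adjusted p = 0.0033) on the second, which had 1 spot per array. CLOCK was lower by -0.45 on its main probe (SE 0.11, limma adjusted p = 0.044), while its second probe gave 0.26 (SE 0.15, limma adjusted p = 0.33). BMAL1, the gene that NR1D1 represses, gave 0.37 (95% interval 0.10 to 0.65, limma adjusted p = 0.097) and did not pass.

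For the members that did not pass, the 95% intervals of the row difference bound its size. They ran from -0.44 to -0.01 for PER1, from -0.67 to 0.04 for PER3 and from -0.77 to 0.11 for DBP. They ran from -0.19 to 0.25 for CRY1, from -0.11 to 0.53 for CRY2 and from 0.00 to 0.46 for NR1D2. The median row difference of the members was -0.27, beside -0.07 over all probes tested.

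The arrays of row 2 lay wholly below those of row 1 for 4 members (NR1D1, PER2, CLOCK and PER1) and wholly above for 1 (BMAL1). Over all probes tested, 14.7% lay wholly below and 9.09% wholly above. Without scaling between arrays the median of all gene probes was 0.61 higher in row 2, against -0.11 with the main scaling, 0.00 with quantile normalization and -0.30 with normexp. Without scaling NR1D1 itself gave -0.02 (limma adjusted p = 0.97), so its call rested on the scaling. Relative to these medians, NR1D1 was lower by -0.62 with the main scaling, by -0.68 with quantile normalization and by -0.44 with normexp. PER2 relative to the median was -0.38, -0.48 and -0.13, and CLOCK -0.34, -0.36 and -0.22, in the same order. The values without scaling equal the main ones by construction, since the main scaling subtracts 1 number per array. With quantile normalization NR1D1 and PER2 passed and CLOCK did not. Over all probes, 941 were higher and 1570 lower in row 2, but 1302 and 1360 with quantile normalization and 5126 and 78 without scaling.

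Other measures also differed between the rows. Of the squamous markers above background throughout, KRT6A was higher in row 2 (-2.38 to -1.84 in row 1, -1.39 to -0.77 in row 2), whereas SOX2 was lower (5.11 to 5.46 and 4.60 to 4.90), so they moved in opposite directions. Their summed level, 5.12 to 5.47 in row 1 and 4.62 to 4.93 in row 2, was set almost wholly by SOX2, and TP63, KRT5, KRT14 and DSG3 were not above background throughout. NKX2-1, an alveolar and adenocarcinoma marker, was slightly higher in row 2 (-0.73 to -0.52 and -0.52 to -0.46) without overlap, and the summed level of its list was -0.59 to -0.37 and -0.37 to -0.25. No fibroblast or leukocyte marker above background throughout separated the rows, with summed levels of -2.62 to -2.29 and -2.54 to -2.39 for fibroblast genes and -2.60 to -1.45 and -2.27 to -1.92 for leukocyte genes. CHGA, SYP and INSM1 each overlapped between the rows. The part of these markers, of array brightness and of the NOC extraction day in the clock differences was not tested.

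The row comparison rested on few arrays. The number of members past the threshold was 3 with all 7 arrays, 3 without CNOT6 shRNA and 6 without the non-target array. It was 1 (NR1D1) without the empty vector, without PARN shRNA or without CNOT6L shRNA, and 0 without CNOT7 shRNA or without NOC shRNA. NR1D1 then gave -0.75 (limma adjusted p = 0.052) without CNOT7 shRNA and -0.63 (limma adjusted p = 0.054) without NOC shRNA. The 6 members past the threshold without the non-target array were CLOCK, PER1, PER2 and NR1D1, lower, and BMAL1 and NR1D2, higher. The share of all probes passing moved with them, to 13.9% lower and 5.85% higher without the non-target array. With the other arrays left out in turn it was 0.519% to 3.79% lower and 0.0873% to 3.56% higher.

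**Figure D3:**
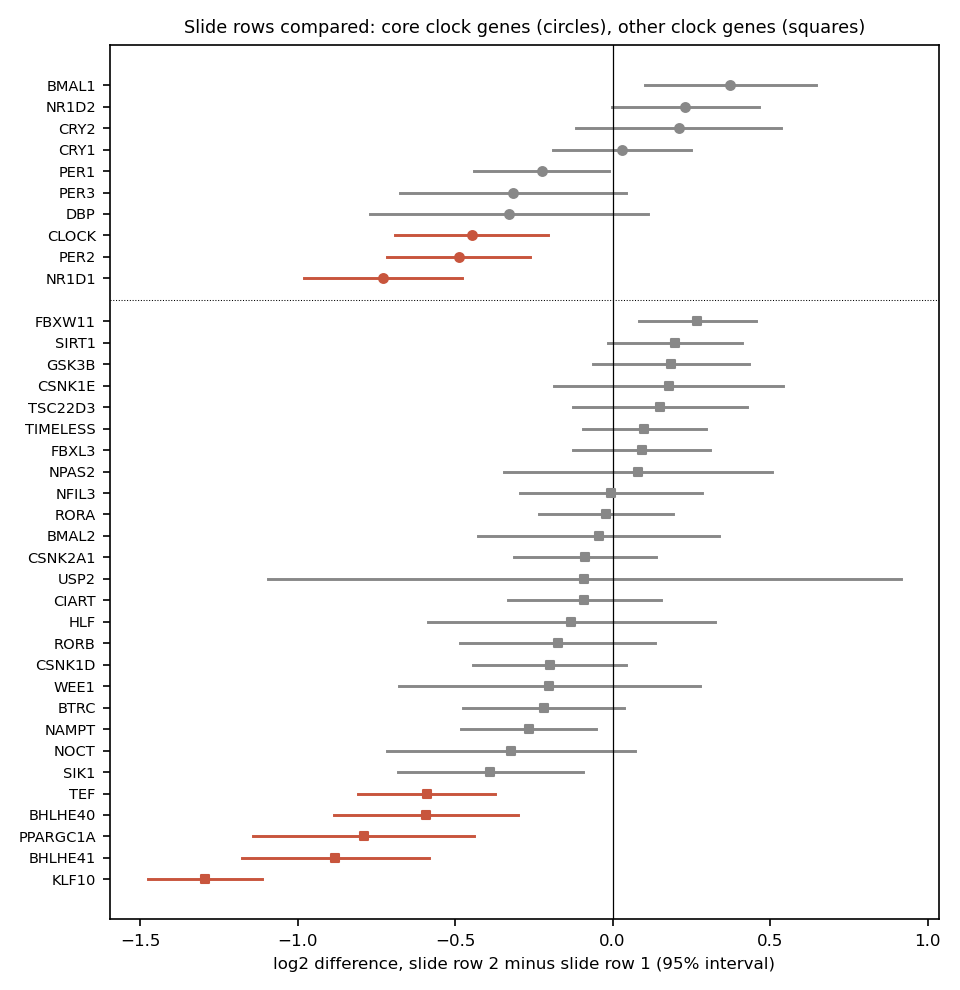
Log2 difference of slide row 2 (3 arrays) from slide row 1 (4 arrays) with its 95% interval from limma, for the main probe of the 10 core clock genes (circles) and 27 of the 28 other clock genes (squares), red where the adjusted p was under 0.05. NR1D1, PER2 and CLOCK are the red circles, at -0.73 to -0.45, and KLF10 lies farthest to the left at -1.29.

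Within row 2, where slide row is shared, each shRNA array was set against the other arrays of the row. No member was 2-fold from both row mates for any of the 3 shRNAs. Over all gene probes 1.18% were with CNOT6L shRNA, 0.325% with CNOT7 shRNA and 0.467% with NOC shRNA. NR1D1 on the NOC shRNA array was 0.23 and 0.35 log2 units under its row mates, and DBP 0.27 and 0.52 under. PER2 on the CNOT7 shRNA array was 0.25 and 0.30 under its row mates on the main probe but 0.15 and 0.17 over them on the second. CRY2 was highest with NOC shRNA, 0.19 and 0.42 over the other arrays. These gaps have no replicate arrays behind them.

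The arrays were also compared as groups, the 5 shRNA arrays against the 2 controls, to ask whether these shRNAs in general moved clock mRNAs. By limma, none of the 10 members passed the adjusted threshold and none had an unadjusted p under 0.05. Over all 38090 probes 0% passed, and 1408 had an unadjusted p under 0.05. The member differences ran from -0.40 for PER3 (95% interval -0.81 to 0.02) to 0.23 for BMAL1 (95% interval -0.19 to 0.65). Within slide row 1 alone, PARN and CNOT6 shRNA against both controls, the differences ran from -0.29 to 0.12 and again no member had an unadjusted p under 0.05. Their SEs ran from 0.15 for PER2 to 0.28 for DBP. The share of all probes under that p is not given for this fit, so its count has no background beside it.

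Beyond the members, the clock pathway was represented by 28 of 29 listed genes, all above background on every array. In the row comparison 5 of the 28 were lower in row 2, none was higher and 23 did not pass. Over all 38090 probes tested, 4.12% were lower and 2.47% higher. The median row difference of the 28 genes was -0.09, beside -0.07 over all probes tested. By role, 2 of 3 E-box repressors, 1 of 3 PAR bZIP factors or antagonists and 2 of 8 outputs passed.

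KLF10, a Krüppel-like factor under clock control that also responds to TGF-beta, had the largest difference of these genes. It was 3.01, 3.16, 3.12 and 3.07 on the row 1 arrays and 1.88, 1.79 and 1.71 with CNOT6L, CNOT7 and NOC shRNA. The rows were far apart, with a difference of -1.29 (SE 0.08, limma adjusted p = 0.00025), and KLF10 was past 2-fold against both controls for each row 2 shRNA.

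BHLHE41 and BHLHE40 (DEC2 and DEC1) compete with CLOCK and BMAL1 at E-boxes. BHLHE41 was -2.68 to -2.37 in row 1 and -3.47 to -3.31 in row 2, a difference of -0.88 (limma adjusted p = 0.0099). BHLHE40 was 0.59 to 1.10 in row 1 and 0.09 to 0.23 in row 2, a difference of -0.59 (limma adjusted p = 0.032). The rows did not overlap for either gene, but for BHLHE40 the gap between them was smaller than the 0.39 between the controls. CIART, the other E-box repressor listed, gave -0.09 and did not pass.

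TEF, a PAR bZIP paralog of DBP, was -0.90 to -0.74 in row 1 and -1.49 to -1.36 in row 2, a difference of -0.59 (limma adjusted p = 0.013). PPARGC1A, a coactivator that links the clock to metabolism, was -3.08 to -2.68 in row 1 and -3.83 to -3.46 in row 2, a difference of -0.79 (limma adjusted p = 0.023). It was also past 2-fold against both controls for NOC shRNA. HLF and NFIL3, which share or oppose the D-box sites of DBP and TEF, did not pass.

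KLF10 alone of the 5 passed without each array in turn. Without NOC shRNA, without CNOT7 shRNA and without CNOT6L shRNA it was the only one of the 28 past the threshold. Without the empty vector TEF, BHLHE41 and KLF10 passed, and without PARN shRNA PPARGC1A passed too. None of the 5 passed when arrays were left unscaled. With quantile normalization PPARGC1A did not pass and the other genes did, and without a trend BHLHE40 alone did not.

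The paralogs of the activators had ranges of 0.76 (NPAS2) and 0.61 (BMAL2), beside 0.62 for CLOCK and 0.69 for BMAL1 on main probes. NPAS2, which can replace CLOCK, was -2.58 with CNOT6 shRNA and -2.17 to -1.82 on the other 6 arrays. BMAL2 was -3.32 with non-target shRNA and -3.02 to -2.71 elsewhere. None of the 4 kinases, 4 ubiquitin ligase or protease genes or 5 partners and paralogs passed in the row comparison. USP2, a deubiquitinase, was dim and had a wide range of 1.87, which was the difference between its controls. It was -5.94 with empty vector and -7.81 with non-target shRNA, and every shRNA array lay between them.

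NOCT itself was -4.32 with empty vector, -4.73 with non-target shRNA, -4.51 with PARN shRNA and -4.46 with CNOT6 shRNA. It was -4.67 with CNOT6L shRNA, -4.87 with CNOT7 shRNA and -4.94 with NOC shRNA. The lowest value belonged to its own shRNA, but the CNOT7 shRNA array lay only 0.07 above it and the controls were 0.41 apart.

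**Figure D4:**
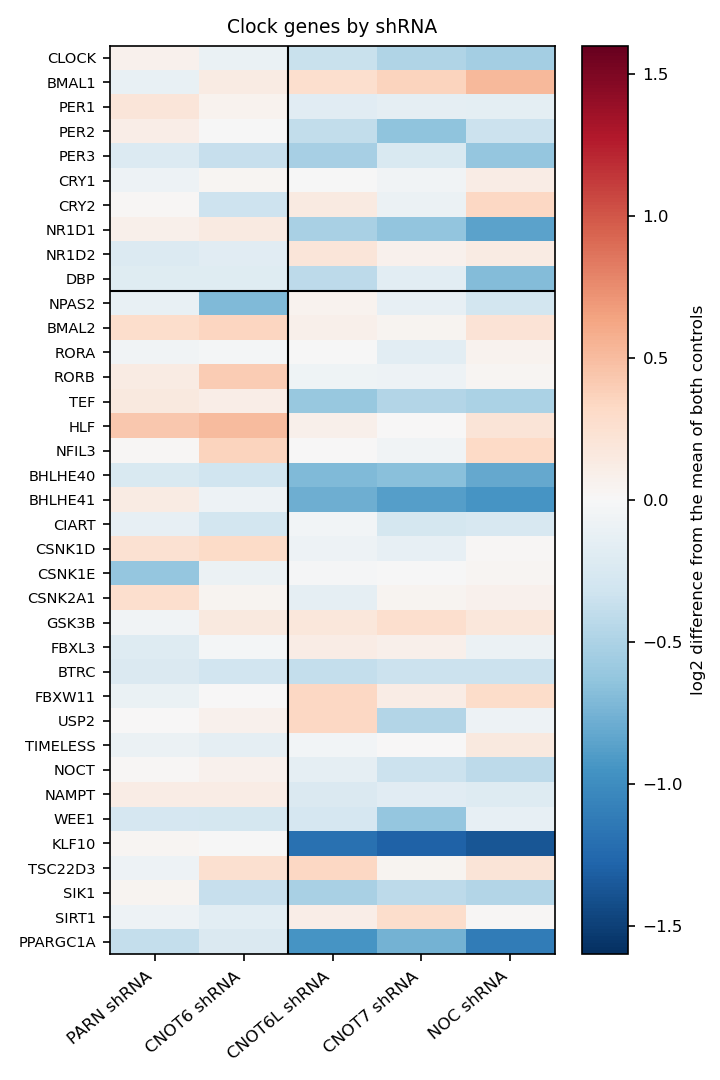
Log2 difference of each shRNA array from the mean of both controls for the main probe of the 10 core clock genes (above the horizontal line) and 27 of the 28 other clock genes (below it); the vertical line separates slide row 1 (left) from slide row 2 (right). NR1D1, TEF, BHLHE40, BHLHE41, KLF10 and PPARGC1A are blue in all 3 columns of row 2, with KLF10 between -1.37 and -1.20. Other genes, CLOCK, PER1, PER2, PER3 and DBP among them, are blue there too. BHLHE40 and PPARGC1A are also blue, more faintly, in both columns of row 1.

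The genes most like NR1D1 and DBP, the members with the widest ranges on main probes, were found by Pearson's r over the 7 arrays among main probes above background throughout. A gene also had to have at least 0.5 times the member's range. With so few arrays in 2 slide rows, such an r is a description of shape. For NR1D1 the 3 closest of 10731 genes were RBM14 (r = 0.99), INKA2 (r = 0.99) and GPR15 (r = 0.99), all lower in row 2 than on every row 1 array, and 106 genes had r above 0.95.

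For DBP the closest of 10201 genes were ZDHHC23 (r = 0.99), AARS1 (r = 0.97) and ZBTB33 (r = 0.97), and 8 genes had r above 0.95. Their shape followed the non-target array instead. AARS1, for example, was 0.90 there and 0.27 to 0.53 on the other arrays.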

How the data were processed

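The authors hybridised Cy3-labelled cRNA of NCI-H520 cells to Agilent SurePrint G3 arrays. Per the file headers, the scanner files came from Agilent Feature Extraction 10.7.3.1 with an intensity per spot, and the deposited series table holds log2 values centred per probe by the authors. Processed signals were put on the log2 scale, the array's own 75th percentile was subtracted, control and outlier spots were left out and the spots of a probe were averaged. The number of arrays, 7, limits the precision. Probes were named by accession through a RefSeq gene table (24826 of 42405 gene probes), and the CNOT6 probe through the accession in the labels. Above background means marked so by the software on 50% or more of a probe's spots.

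The members and the gene lists were chosen with earlier results of these data known. Named genes were the 10 members, NOCT, NPAS2, BMAL2, each other clock gene that was called, the 3 other clock genes with the widest range, the silenced genes and the 3 genes most like NR1D1 and DBP; 1 clock gene and 1 marker gene are not reported here. For a single shRNA, a gene was called when it differed at least 2-fold from both controls in the same direction; the brighter side had to be above background, and a dim side was raised, where lower, to the lowest value above background on that array. Groups with more than 1 array were compared with lmFit and eBayes with a trend in limma 3.58.1 (R 4.3.3), two-sided, with Benjamini-Hochberg adjustment, tested on simulated data. Promoter sequences were from RefSeq, GRCh38.p14. Nothing in the labels says whether groups came from separate cultures, so p-values cover only the spread between these arrays. Slide row is the position given in the file headers.

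Alternatives were quantile normalization, no scaling, median centring, normexp with an offset of 50, the series table, other filters, the mean over probes, a 1.5-fold threshold, limma for lone arrays and leaving out each array. The other probe of a gene in the row comparison was added after seeing the data. Untransfected cells were not analysed here.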

Additional observations from a re-analysis of the deposited data

How the results depend on the processing

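With each shRNA against both controls, 0 of 10 members were called under most alternatives. The exceptions were no scaling, with 4 members lower for CNOT6 shRNA (beside 13.1% of all gene probes lower), whose array was the dimmest, and a 1.5-fold threshold, with 2 members for CNOT7 shRNA (beside 5.45% of all probes) and 1 for NOC shRNA (beside 5.97%). With either control left out, 0 to 1 members were called for NOC shRNA, the 1 being DBP against the non-target array alone (beside 8.12% of all probes). With median centring, 1 member, DBP, differed 2-fold between the controls, at -1.02. In the comparison of slide rows 3 members passed, but 1 without scaling (BMAL1, higher, beside 13.5% of all probes higher), 1 without a trend (NR1D1) and 0 to 6 with each array left out. Without scaling the main probes of CLOCK and PER2 turned to row differences of 0.26 and 0.22, and NR1D1 gave -0.02. The median of all gene probes was then 0.61 higher in row 2. With the main scaling, the second CLOCK probe gave 0.26 where the main CLOCK probe gave -0.45. No paired analysis was possible because each group has 1 array. No member passed in the comparison of 5 shRNA arrays with 2 controls under any alternative run. Of all probes, 0% passed that comparison with the main settings. Of 480 alternative values of member differences from the control mean, 391 stayed within the SD between the controls and 89 moved further. Signal over background did not limit the members, which were above background throughout.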
